A study of Mus musculus with 8 samples.

Results

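Expression of 10 heart muscle genes was followed on arrays of mouse lung: Myh6, Myl7, Myl4, Nppa, Tnnt2, Tnni3, Actc1, Mb, Pln and Ryr2. They were chosen by name, as genes that heart muscle cells use, and each had 1 probe that carries exactly 1 gene symbol. They make up 10 of the 19937 genes with such a probe, and all 10 passed the filter on low values (a mean of at least log2 5.93, the 25th percentile of those genes), which left 14953 genes tested. The study asked how mepenzolate, a muscarinic receptor blocker, affects inflammation and oxidative stress in the lung. Mice were anaesthetised with chloral hydrate (500 mg/kg) and given mepenzolate in PBS, or vehicle, into the trachea. Lung RNA came from mepenzolate lungs at 7 h, vehicle lungs at 7 h, mepenzolate lungs at 25 h and vehicle lungs at 25 h, with 2 arrays in each of these 4 groups. Every group shared the anaesthetic and the intratracheal dosing, and the labels give no strain, age or sex. They do not state whether replicate arrays stand for different mice, and p-values therefore reflect only how far these arrays spread, part of which may be technical. Values are log2 intensities, so a difference of 1 is a 2-fold difference, and the precision is limited by the number of arrays.

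Lung tissue of rodents contains heart muscle. Cardiomyocytes of atrial type form sleeves around the pulmonary veins and follow them into the lung, and they express the sarcomere, calcium handling and oxygen binding genes of the atria. In a cardiomyocyte, Ryr2 releases calcium from the sarcoplasmic reticulum, calcium binds the troponin complex on the thin filament, and myosin then pulls on cardiac actin. Calcium is pumped back by an enzyme that Pln holds in check. Nppa encodes atrial natriuretic peptide, a hormone that atrial muscle secretes. Arrays on whole tissue cannot tell fewer cardiomyocytes from less RNA per cardiomyocyte. The sources used here do not state how heart or large veins were cut away from the lung. Muscle of the pulmonary veins and heart tissue taken along with the lung therefore cannot be told apart.

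The arrays carried lung markers at high log2 levels, with means over the 8 arrays of 13.52 for Sftpc (surfactant protein C of alveolar type 2 cells), 12.42 for Ager (alveolar type 1 cells) and 11.22 for Pecam1 (endothelium). Over all probes, r was 0.988 to 0.993 for the 4 replicate pairs and in the same range for the 24 pairs that cross groups. The label of heart muscle was checked against further markers. Of the atrial and pulmonary vein list, Sln, Gja5, Kcnj3, Kcnj5 and Hcn4 passed the filter, while Bmp10 and Kcna5 lay below it. Of the ventricular list, Myl3, Myh7 and Hey2 passed, while Myl2, the ventricular regulatory light chain (mean log2 5.54), and Irx4, a ventricular regulator (mean log2 5.88), lay below it. Of 14 skeletal muscle genes 6 lay below it, Myh1, Myh4, Mylpf, Myl1, Pvalb and Mybpc1, and the other 8 passed.

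The promoters of 5 of the genes are shown, picked by how these genes varied over the arrays. Whether a promoter bears on that variation was not tested. Myh6, Tnni3 and Actc1 went up and down together over the arrays. Nppa and Tnnt2 followed these genes less closely, Tnnt2 with r of up to 0.598 (Tnni3) and Nppa with r of up to 0.111 (Actc1). Each sequence is the 250 bases before an annotated transcription start, on the gene's strand, from RefSeq (build GRCm38.p6). Capitals mark matches to 7 motifs. Searched on both strands were AGATAA (bound by GATA factors), CATTCC (TEAD factors), AGGTGT (T-box factors), TNAAGTG (Nkx2-5), the MEF2 site and the CArG box of serum response factor. TATAAA was searched on the gene's strand alone. The windows are Myh6 at chr14:54966608-54966857 (minus strand), Tnni3 at chr7:4522529-4522778 (minus strand), Actc1 at chr2:114052876-114053125 (minus strand), Nppa at chr4:148000472-148000721 (plus strand) and the first Tnnt2 window at chr1:135836084-135836333 (plus strand).
Myh6: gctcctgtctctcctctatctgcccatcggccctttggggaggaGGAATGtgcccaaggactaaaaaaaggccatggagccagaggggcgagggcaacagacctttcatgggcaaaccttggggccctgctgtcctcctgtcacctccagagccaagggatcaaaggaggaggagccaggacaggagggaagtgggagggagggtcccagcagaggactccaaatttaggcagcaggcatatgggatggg
Tnni3: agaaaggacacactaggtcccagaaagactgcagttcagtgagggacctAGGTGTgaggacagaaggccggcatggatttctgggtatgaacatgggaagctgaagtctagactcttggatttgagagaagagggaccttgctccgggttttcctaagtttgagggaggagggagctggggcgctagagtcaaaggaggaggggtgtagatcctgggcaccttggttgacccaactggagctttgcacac
Actc1: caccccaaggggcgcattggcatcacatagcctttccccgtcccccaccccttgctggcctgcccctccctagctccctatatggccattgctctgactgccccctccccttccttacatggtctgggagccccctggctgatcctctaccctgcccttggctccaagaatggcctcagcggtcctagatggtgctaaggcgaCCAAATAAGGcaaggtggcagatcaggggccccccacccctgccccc
Nppa: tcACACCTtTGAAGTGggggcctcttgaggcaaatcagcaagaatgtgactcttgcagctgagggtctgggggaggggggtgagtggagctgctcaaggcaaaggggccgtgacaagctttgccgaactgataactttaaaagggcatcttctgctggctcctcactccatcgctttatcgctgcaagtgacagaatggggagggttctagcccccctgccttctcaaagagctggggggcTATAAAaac
Tnnt2: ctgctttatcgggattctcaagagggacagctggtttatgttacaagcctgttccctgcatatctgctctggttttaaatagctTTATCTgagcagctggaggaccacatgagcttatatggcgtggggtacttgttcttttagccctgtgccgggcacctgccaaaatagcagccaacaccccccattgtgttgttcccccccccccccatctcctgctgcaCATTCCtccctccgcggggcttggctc

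The 10 genes have 13 such windows, since several were given for Tnnt2 and Mb. For Myh6, Myl4, Tnni3 and Tnnt2 the annotated span of the gene reaches farther upstream than the starts used for the windows. The bases before such outer ends were not all searched, so a motif not found in these genes may lie there. The CArG box was found in 2 of the genes, Actc1 and Myl7, and in 1.47% of all 32841 windows of the table. CATTCC was found in Myh6, Myl7 and Tnnt2 and in 12.6% of all windows. AGATAA was found in Tnnt2 and Pln (9.99% of all windows), AGGTGT in Nppa and Tnni3 (11.8%) and TNAAGTG in Nppa (10.1%). TATAAA was found in Nppa and Pln (7.59%). The MEF2 site was found in 0 of the 10 genes and in 2.92% of all windows. In the Nppa window, the AGGTGT match and the TNAAGTG match lie next to each other at the far end, and TATAAA lies 9 bases before the start. Each of Myh6, Tnni3 and Actc1 held 1 of the 7 motifs, and it was a different one in each. The windows of Myl4, Ryr2 and Mb held none of the 7.

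The motor of the thick filament is formed by Myh6, the alpha myosin heavy chain, with the atrial light chains Myl7 and Myl4. Myh6 (chr14:54941921-54968017) had log2 levels of 9.87 and 10.21 in mepenzolate lungs and 10.29 and 10.30 in vehicle lungs at 7 h, and of 10.31 and 9.94 in mepenzolate lungs and 9.89 and 10.28 in vehicle lungs at 25 h. Its 3 lowest arrays, between 9.87 and 9.94, were the first mepenzolate array at 7 h, the second mepenzolate array at 25 h and the first vehicle array at 25 h, while the other 5 lay at 10.21 or above. Myl4 (chr11:104546017-104587215) had 11.77 and 12.01 in mepenzolate lungs and 12.08 and 12.10 in vehicle lungs at 7 h, and 12.15 and 11.75 in mepenzolate lungs and 11.87 and 12.07 in vehicle lungs at 25 h. The same 3 arrays were its lowest. Myl7 (chr11:5896637-5898782) had 10.38 and 10.61 in mepenzolate lungs and 10.45 and 10.54 in vehicle lungs at 7 h, and 10.68 and 10.59 in mepenzolate lungs and 10.55 and 10.83 in vehicle lungs at 25 h. Its highest array was the second vehicle array at 25 h, and the groups overlapped at both times.

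On the thin filament, Actc1 encodes cardiac actin, Tnni3 the inhibitory subunit of cardiac troponin and Tnnt2 the troponin subunit that holds the complex to tropomyosin. Tnni3 (chr7:4518305-4522718) had 10.70 and 11.03 in mepenzolate lungs and 11.06 and 11.12 in vehicle lungs at 7 h, and 11.18 and 10.64 in mepenzolate lungs and 10.87 and 11.14 in vehicle lungs at 25 h. The 2 mepenzolate arrays at 25 h were its highest and its lowest of all 8. Actc1 (chr2:114047282-114052875) had 11.51 and 11.75 in mepenzolate lungs and 11.73 and 11.90 in vehicle lungs at 7 h, and 11.88 and 11.61 in mepenzolate lungs and 11.51 and 11.66 in vehicle lungs at 25 h. Its range over the 8 arrays, 1.31-fold, was the narrowest of the 10. Tnnt2 (chr1:135836315-135852268) had 10.16 and 10.94 in mepenzolate lungs and 11.45 and 10.57 in vehicle lungs at 7 h, and 10.64 and 10.09 in mepenzolate lungs and 11.26 and 11.65 in vehicle lungs at 25 h. Its range was 2.95-fold, and at 25 h both mepenzolate arrays lay below both vehicle arrays.

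Of the calcium handling genes, Ryr2 (chr13:11553099-12106945) had 8.19 and 8.44 in mepenzolate lungs and 8.50 and 8.58 in vehicle lungs at 7 h, and 8.69 and 8.30 in mepenzolate lungs and 8.17 and 8.64 in vehicle lungs at 25 h. At 7 h both mepenzolate arrays lay below both vehicle arrays, and at 25 h the groups overlapped. Pln (chr10:53337686-53345999) had 8.76 and 9.17 in mepenzolate lungs and 9.52 and 9.76 in vehicle lungs at 7 h, and 9.60 and 8.99 in mepenzolate lungs and 9.40 and 9.87 in vehicle lungs at 25 h. Mb encodes myoglobin, the oxygen store of heart and slow skeletal muscle. Mb (chr15:77015487-77050668) had 9.76 and 9.72 in mepenzolate lungs and 10.45 and 10.27 in vehicle lungs at 7 h, and 10.27 and 9.93 in mepenzolate lungs and 10.06 and 10.49 in vehicle lungs at 25 h. In both Pln and Mb the groups were apart at 7 h and overlapped at 25 h. The hormone gene Nppa (chr4:148000722-148002074) had 7.96 and 6.99 in mepenzolate lungs and 7.93 and 8.31 in vehicle lungs at 7 h, and 9.05 and 9.40 in mepenzolate lungs and 7.79 and 9.10 in vehicle lungs at 25 h. Its range of 5.32-fold was the widest of the 10, and its highest 3 arrays were all from 25 h.

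**Figure D1:**
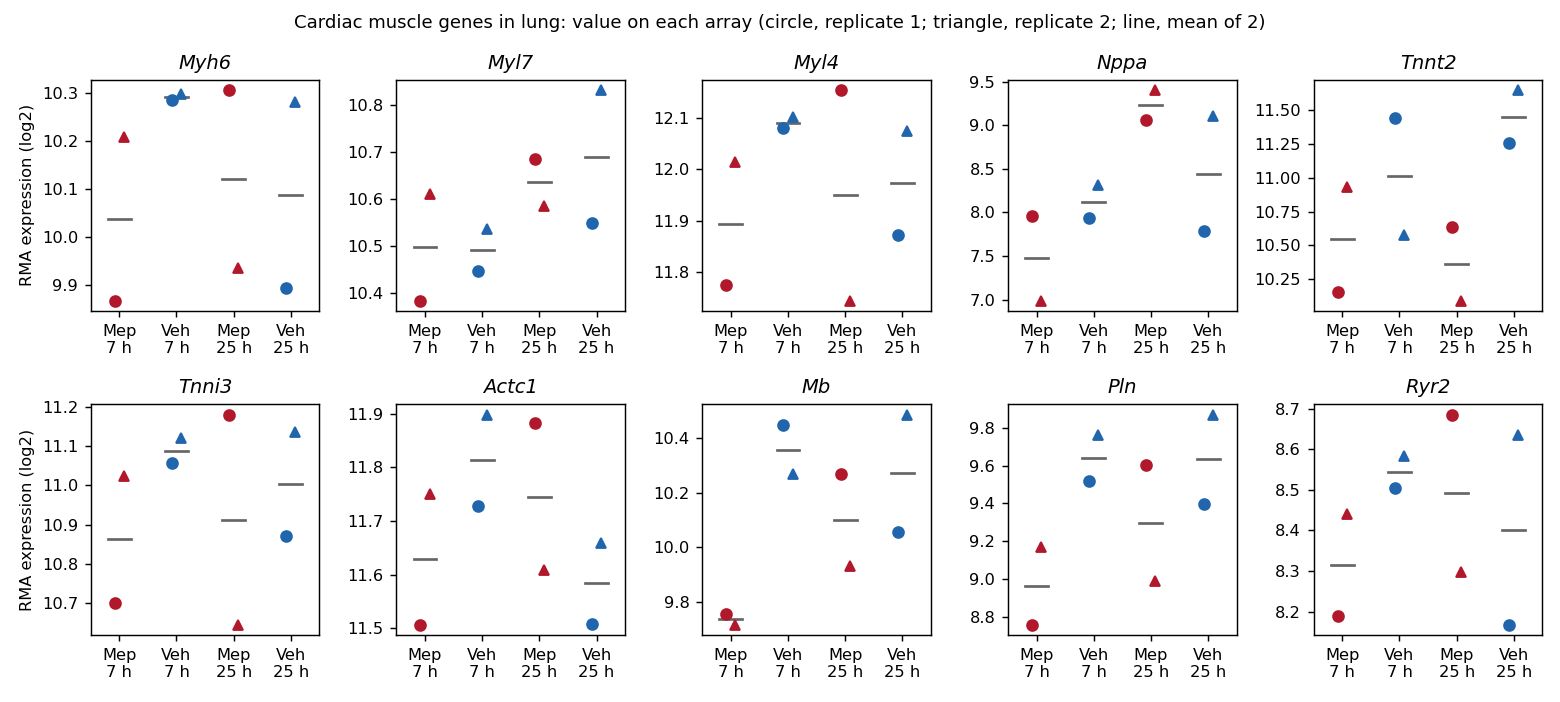
Log2 level of each of the 10 heart muscle genes on each of the 8 arrays, 1 panel per gene, with mepenzolate left of vehicle at each time; each point is 1 array and the bars are group means. Nppa spans 6.99 to 9.40 and Tnnt2 10.09 to 11.65, while Actc1 stays between 11.51 and 11.90.

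Against all genes tested, most of these genes varied much between arrays. The SD of log2 levels over the 8 arrays was 0.81 for Nppa, 0.58 for Tnnt2, 0.39 for Pln and 0.30 for Mb, which lie at the 99.9th, 99.7th, 99.0th and 97.9th percentile of all genes tested. It was 0.21 for Tnni3, 0.20 for both Ryr2 and Myh6, 0.16 for Myl4, 0.15 for Actc1 and 0.14 for Myl7. The median over all genes tested was 0.10 and the 95th percentile 0.23. Part of this variance lay between the 2 arrays of a group. With 8 arrays in 4 groups, a large share falls within groups even where groups do not differ. The share over all genes tested is not given here, so these values are not read as particular to the 10. The share within groups was 79.7% for Tnni3, 78.2% for Ryr2, 76.3% for Myl4 and 73.5% for Myh6. It was 58.3% for Actc1 and 55.3% for Myl7, and lower for Pln (39.7%), Tnnt2 (38.8%), Nppa (31.4%) and Mb (26.7%).

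The differences between the 2 arrays of a group mostly took the same sign across the genes. In vehicle lungs at 25 h the second array was higher than the first for 10 of 10 genes, with a median of 0.39. Of all genes tested, the second array was higher for 38.2% in mepenzolate and 48.8% in vehicle lungs at 7 h, and for 43.7% in mepenzolate and 51.4% in vehicle lungs at 25 h. In mepenzolate lungs at 25 h the second array was higher for 1 of 10, Nppa, and the median was -0.38. In both groups at 7 h the second array was higher for 8 of 10, with a median of 0.25 in mepenzolate lungs and of 0.07 in vehicle lungs. The exceptions were Nppa (-0.97) and Mb (-0.04) in mepenzolate lungs, and Tnnt2 (-0.87) and Mb (-0.18) in vehicle lungs. The absolute replicate difference at 7 h had a median over the 10 genes of 0.29 in mepenzolate lungs (all genes tested, 0.14) and of 0.13 in vehicle lungs (all genes tested, 0.09). At 25 h it was 0.38 in mepenzolate lungs (all genes tested, 0.12) and 0.39 in vehicle lungs (all genes tested, 0.07).

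Each gene was then centred on its mean and the 10 genes averaged per array. This mean was -0.34 and -0.16 in mepenzolate lungs and 0.10 and 0.10 in vehicle lungs at 7 h. At 25 h it was 0.20 and -0.12 in mepenzolate lungs and -0.11 and 0.33 in vehicle lungs. The lowest array was thus the first mepenzolate array at 7 h and the highest the second vehicle array at 25 h. Groups were apart at 7 h and overlapped at 25 h, and 48.7% of the variance lay within groups. The mean is not scaled, so Nppa and Tnnt2, with the largest SD, weigh most in it. The median over the 10 centred genes at 7 h was -0.27 and 0.03 in mepenzolate lungs and 0.10 and 0.15 in vehicle lungs. By the median, the 10 genes were thus not low on the second mepenzolate array at 7 h, the lowest array of Nppa.

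The covariation had a tight core. All correlations here are over the same 8 arrays, which all genes share, and are given as a description. Among Myh6, Myl4, Tnni3, Actc1 and Ryr2 the 10 pairs had Pearson's r of 0.772 to 0.989 and Spearman's rho of 0.714 to 0.929. These 5 genes were singled out after their correlations were seen. The closest pair of all 45 was Myl4 with Tnni3 (r = 0.989, rho = 0.929), followed by Myh6 with Ryr2 and Myh6 with Myl4 (r = 0.954 for both). Without the 2 arrays farthest from the median of the 10-gene mean, the first mepenzolate array at 7 h and the second vehicle array at 25 h, these 10 pairs had r of 0.804 to 0.990. Pln and Mb correlated with the 5 at 0.412 to 0.867.

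Myl7, Tnnt2 and Nppa were looser. Myl7 correlated with the other 9 at 0.282 to 0.602, and without those 2 arrays at -0.537 to 0.305. Tnnt2 correlated with the others at -0.201 to 0.663 and Nppa at -0.201 to 0.479, and the pair Tnnt2 and Nppa had the lowest r of all (-0.201, rho = -0.310). Over all 45 pairs 12 had r above 0.8 and 3 below 0, with a mean of 0.560, and the first principal component of the scaled values held 64.9% of the variance. Without the 2 farthest arrays the mean was 0.352 and the number of pairs above 0.8 was again 12. Against the mean of the other 9 genes, r was highest for Pln (0.897), Mb (0.882) and Ryr2 (0.843), and lowest for Actc1 (0.538), Tnnt2 (0.371) and Nppa (0.146). Without those 2 arrays Tnnt2 had -0.256, Nppa -0.224 and Myl7 -0.028, and the other 7 genes 0.661 to 0.802. Taken from deviations from the group means, r was 0.874 for Myl7, 0.455 for Tnnt2 and -0.008 for Nppa. By this measure the other 7 genes had 0.773 (Actc1) to 0.987 (Ryr2). Such deviations mirror each other between the 2 arrays of a group, so high values are easily reached. The mean of the other 9 is not scaled, so Nppa and Tnnt2 weigh most in it for the rest. Actc1 had r of 0.111 with Nppa and 0.032 with Tnnt2. With the others of the tight core it had 0.772 (Tnni3) to 0.867 (Myh6).

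**Figure D2:**
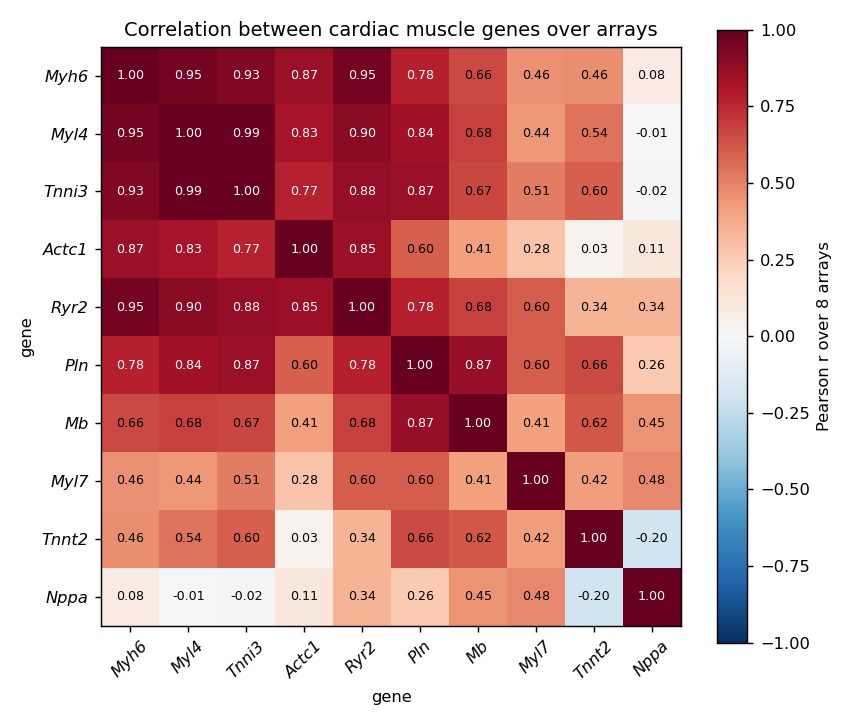
Pearson's r over 8 arrays for each pair of the 10 genes; rows and columns are genes and colour is r on a scale from -1 to 1. Myl4 and Tnni3 are closest (0.989), and the row of Nppa is the palest.

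At 7 h, the question was whether mepenzolate lungs differed from vehicle lungs in heart muscle transcripts. On average 9 of the 10 genes were lower and 1, Myl7, was higher, and 0 passed limma at an adjusted p of 0.05 over 14953 genes, where 0% of all genes tested were called. The median difference of the 10, mepenzolate minus vehicle, was -0.24, and that of all genes tested was -0.01, with 56.4% of all genes lower. Pln differed by -0.68 ± 0.24 and Mb by -0.62 ± 0.16 (moderated SE from limma), at 0.62 and 0.65 times the vehicle level. Their unadjusted p-values were 0.021 and 0.0045 and both adjusted p-values 1.00. Nppa differed by -0.65 ± 0.43 and Tnnt2 by -0.46 ± 0.34, with arrays of both groups interleaved. With 1 array left out, Nppa ran from -1.13 without the first mepenzolate array to -0.16 without the second. Tnnt2 was -0.08 without the first mepenzolate array and -0.03 without the first vehicle array, but -0.85 when the second mepenzolate array was left out and -0.90 when the second vehicle array was.

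The remaining differences at 7 h were smaller. Myh6 differed by -0.25 ± 0.17, Ryr2 by -0.23 ± 0.18, Tnni3 by -0.23 ± 0.18, Myl4 by -0.20 ± 0.15, Actc1 by -0.18 ± 0.13 and Myl7 by 0.01 ± 0.12. Both mepenzolate arrays lay below both vehicle arrays for 6 of the 10 genes, Myh6, Myl4, Tnni3, Mb, Pln and Ryr2, and for 15.5% of all genes tested. Since these 6 include 4 of the 5 most tightly correlated genes, their counts are not independent of one another. At an unadjusted p of 0.05 there were 357 of all genes and 2 of the 10. The size rested on the first mepenzolate array: without it the median of the 10 was -0.08, and without the second mepenzolate array it was -0.37.

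At 25 h the 10 genes divided. Mepenzolate lungs were on average higher in 4 of them and lower in 6, the median difference was -0.04 against -0.02 over all genes tested (58.7% lower), and 0 passed (0% of all genes tested). Tnnt2 differed most, by -1.09 ± 0.34, at 0.47 times the vehicle level (unadjusted p = 0.013, adjusted p = 0.979). It was the 1 gene of the 10 with both mepenzolate arrays below both vehicle arrays, as were 22.4% of all genes tested. Nppa differed by 0.78 ± 0.43, in the opposite direction, but the first vehicle array alone was low, and without it the difference was 0.13. Pln differed by -0.34 ± 0.24, Mb by -0.17 ± 0.16, Actc1 by 0.16 ± 0.13 and the other 5 by between -0.09 and 0.09. At an unadjusted p of 0.05 there were 599 of all genes and 1 of the 10. The sign of the median turned with single arrays: leaving out the second array gave 0.18 (mepenzolate) and 0.08 (vehicle), and leaving out the first gave -0.19 (mepenzolate) and -0.18 (vehicle).

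The difference between the effect at 25 h and that at 7 h was tested as an interaction. It was above 0 for 8 of the 10 genes and below 0 for Myl7 and Tnnt2, with a median of 0.30 (all genes tested, -0.01), and 0 passed (0% of all genes tested). Nppa had the largest, 1.43 ± 0.61 (unadjusted p = 0.046, adjusted p = 1.00), ahead of Tnnt2 (-0.63 ± 0.48), Mb (0.45 ± 0.23) and Actc1 (0.35 ± 0.18). These values show neither a time dependence of the effect nor its absence. There were 400 of all genes at an unadjusted p of 0.05. The median was 0.07 without the first mepenzolate array at 25 h, 0.09 without the first vehicle array at 25 h and 0.13 without the first mepenzolate array at 7 h.

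**Figure D3:**
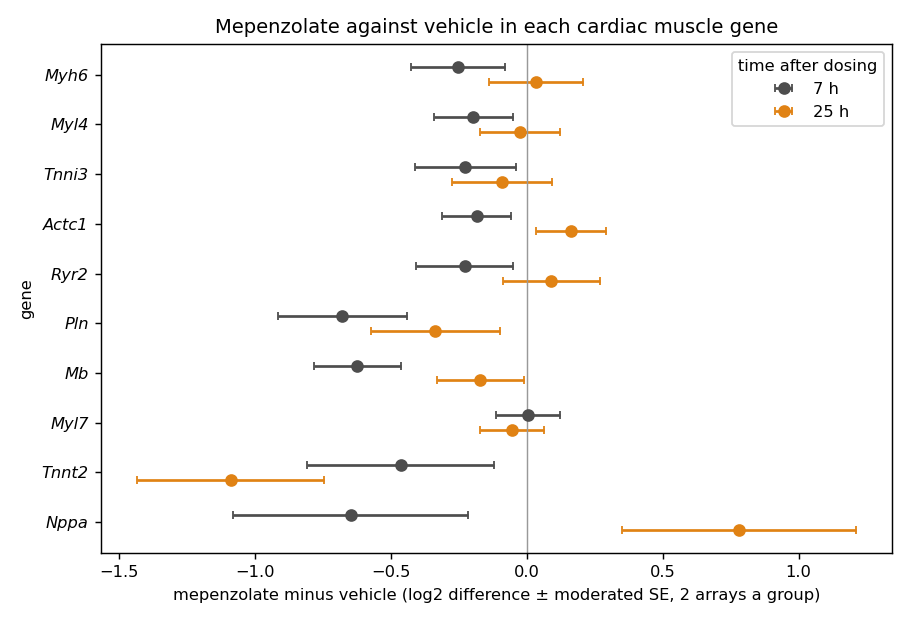
Log2 difference, mepenzolate minus vehicle, of each of the 10 genes at 7 h and at 25 h; points are differences of group means of 2 arrays each and bars are limma's standard errors. At 7 h all points but Myl7 lie below 0, and at 25 h Tnnt2 (-1.09) and Nppa (0.78) lie farthest from 0, on opposite sides.

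The time after dosing was compared within each treatment. In mepenzolate lungs 9 of the 10 genes were on average higher at 25 h than at 7 h, with a median of 0.13 (all genes tested, -0.01). This count rested on single arrays: 5 of 10 were lower without the first mepenzolate array at 7 h (median 0.01), and 6 of 10 without the first mepenzolate array at 25 h (median -0.02). Of all genes tested 4 passed, or 0.0268%, and 0 of the 10. Nppa differed most, with 9.05 and 9.40 at 25 h against 7.96 and 6.99 at 7 h, a difference of 1.75 ± 0.43 or 3.37-fold (adjusted p = 0.396), and Mb differed by 0.37 ± 0.16 (adjusted p = 0.788). In these 2 of the 10 genes both 25 h arrays lay above both 7 h arrays, as they did in 12.5% of all genes tested. In vehicle lungs 3 of the 10 genes were higher at 25 h and 7 lower, with a median of -0.09 (all genes tested, 0.00). Without the first vehicle array at 25 h the median was 0.11, with 3 lower, and without the second it was -0.27, with 8 lower. Here 13 of all genes tested passed, or 0.0869%, and 0 of the 10. Tnnt2 differed by 0.44 ± 0.34, Nppa by 0.32 ± 0.43, Actc1 by -0.23 ± 0.13 and Myl7 by 0.20 ± 0.12. Both time comparisons share their arrays with the treatment comparisons.

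Other genes of heart muscle were read from lists by function, with 53 genes tested in 6 lists beside the 10. In none of the 6 lists did a gene pass at 7 h or at 25 h. At 7 h the sarcomere and Z-disc list had 14 of 17 genes lower in mepenzolate lungs (median -0.20), with Lmod2 (a thin filament pointed end protein) at -0.37 ± 0.17, Tcap (telethonin, which anchors titin) at -0.29 ± 0.13 and Xirp2 (an actin binding protein of the intercalated disc) at -0.28 ± 0.14. The muscle energy list had 9 of 10 lower (median -0.25). In it, Cox8b and Cox6a2, muscle isoforms of cytochrome oxidase subunits, differed by -0.42 ± 0.21 and -0.40 ± 0.16, and the fatty acid binding protein Fabp3 by -0.37 ± 0.15. Cox6a2 had 8.07 and 8.49 in mepenzolate lungs and 8.63 and 8.73 in vehicle lungs at 7 h, with no overlap, and 8.66 and 8.46 against 8.55 and 8.89 at 25 h. Fabp3 had 9.03 and 9.11 in mepenzolate lungs and 9.40 and 9.47 in vehicle lungs at 7 h, again with no overlap. Both genes were named for their large moderated t at 7 h, so the lack of overlap there adds no support. Of all genes tested, 15.5% had both mepenzolate arrays below both vehicle arrays at 7 h.

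Calcium handling genes were lower in 6 of 9 (median -0.04), led by Casq2, the calcium store of the sarcoplasmic reticulum (-0.20 ± 0.25), Srl (sarcalumenin, -0.19 ± 0.16) and Hrc (a histidine-rich calcium binding protein, -0.14 ± 0.14). The atrial and pulmonary vein list was lower in 3 of 5 (median -0.01). Kcnj5, a subunit of the acetylcholine-activated potassium channel, differed by -0.23 ± 0.22, Sln, an inhibitor of the calcium pump in atrial muscle, by -0.15 ± 0.20, and Gja5, the gap junction protein connexin 40, by 0.29 ± 0.15. Gja5 is also made by arterial endothelium. The ventricular list was lower in 1 of 3, with Myl3, the ventricular essential light chain, at -0.18 ± 0.16, Myh7, the beta myosin heavy chain, at 0.15 ± 0.11 and Hey2, a ventricular regulator, at 0.10 ± 0.18. Transcription regulators were lower in 4 of 9 (median 0.06), with Smyd1 (a muscle lysine methyltransferase) at -0.35 ± 0.14, Ankrd1 (a stretch-responsive repeat protein) at -0.35 ± 0.26 and Mef2c at 0.08 ± 0.08. At 25 h the medians were -0.07 for the sarcomere list (13 of 17 lower), -0.06 for the energy list (8 of 10 lower), -0.03 for calcium handling, -0.02 for the atrial list, 0.04 for the ventricular list and -0.05 for the regulators.

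Lists of other cell types were read on the same arrays. Counts and median differences are over the genes tested, and summed and centred levels are over all listed genes with a probe. Skeletal muscle genes had a summed linear level of 1226 to 1397 in mepenzolate lungs and 1325 to 1389 in vehicle lungs at 7 h, with 6 of 8 tested genes lower and a median difference of -0.03. Smooth muscle genes summed to 11121 to 11370 in mepenzolate lungs and 10565 to 12055 in vehicle lungs at 7 h (7 of 11 lower, median -0.03). Club cell genes were lower in 4 of 5 at 7 h, with a median difference of -0.23, and ciliated cell genes in 5 of 6 (median -0.15), against medians of 0.14 and 0.06 at 25 h. Mesothelium genes were higher in 5 of 6 at both times, with medians of 0.22 at 7 h and 0.41 at 25 h, and adipocyte genes likewise in 5 of 6 (0.16 at 7 h and 0.28 at 25 h). Liver genes were higher in 4 of 4 at 7 h (median 0.44) and in 1 of 4 at 25 h (-0.07). Thymocyte genes had a median of -0.05 at 7 h and 0.26 at 25 h. At 7 h the medians of the cartilage, alveolar type 2, alveolar type 1 and endothelium lists lay between -0.03 and 0.04, and 0 genes of any of these lists passed at either time. On the second mepenzolate array at 7 h liver genes were high, with Alb (albumin) at 8.93 against a mean of 6.55 over 8 arrays, and the list summed to 415 to 1023 in mepenzolate lungs against 397 to 451 in vehicle lungs at 7 h. The adipocyte list was low on the first vehicle array at 7 h (-0.32) and high on the first mepenzolate array at 25 h (0.24). Club cell and ciliated cell genes were low on the second mepenzolate array at 7 h, with median centred levels of -0.33 and -0.29. The 10-gene mean was next to lowest on that same second mepenzolate array (-0.16), where the median of the 10 genes was 0.03. It was lowest on the first mepenzolate array at 7 h (-0.34). There the medians of the liver, club cell and ciliated cell lists were -0.20, -0.04 and 0.09. The part of these lists in the differences of the heart muscle genes was not tested.

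**Figure D4:**
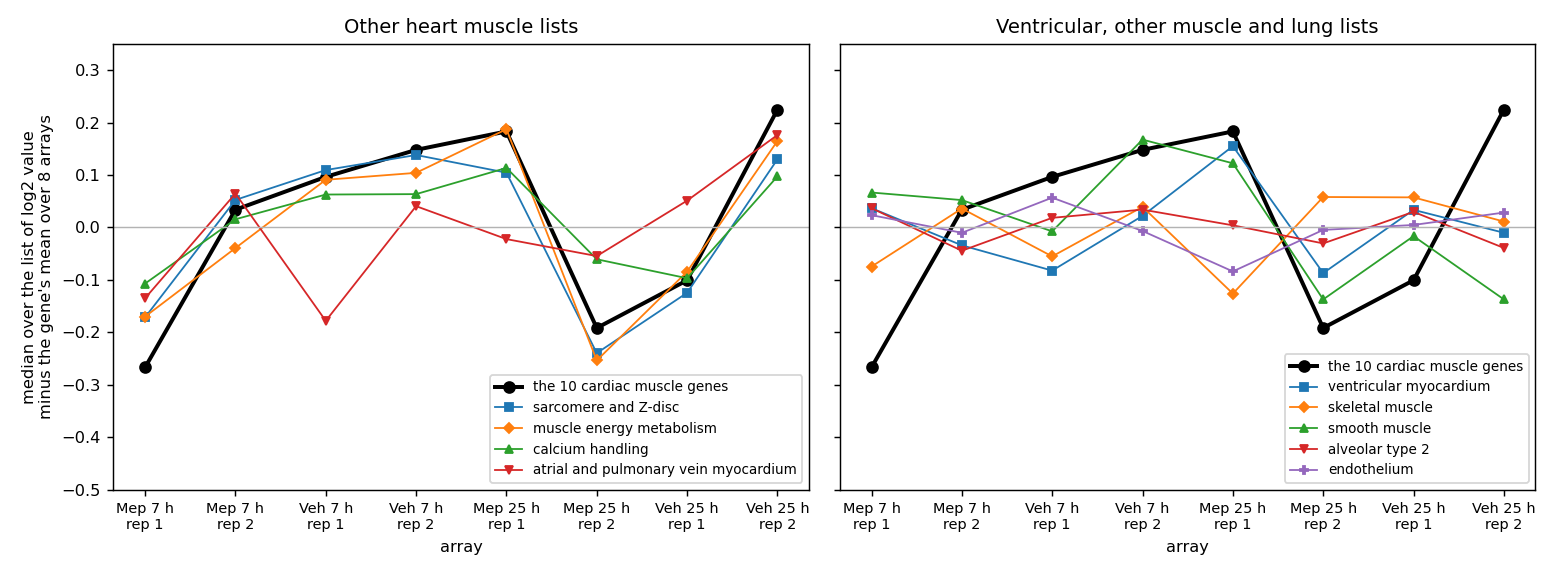
Median centred log2 level of the 10 heart muscle genes and of some of the lists on each of the 8 arrays. The lists shown are sarcomere, energy, calcium handling, atrial, ventricular, skeletal muscle, smooth muscle, alveolar type 2 and endothelium. Mepenzolate is left of vehicle at each time. Each point is the median over all genes of a list with a probe, those below the filter included. Lines only join the points of a list. The 10 heart muscle genes (-0.27 and -0.19) and the energy list (-0.17 and -0.25) are low on the first mepenzolate array at 7 h and the second mepenzolate array at 25 h, and the alveolar type 2 list stays near 0.

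Genes most like the 10 were sought among the other 14943 genes tested, by Pearson's r over 8 arrays with the 10-gene mean. Of these genes 86, or 0.576%, reached 0.8, and of the 53 in the heart muscle lists 12 did, or 22.6%, while 0 of the 68 genes tested in the lists of other cell types did. By list the counts were 5 of 10 energy genes, 3 of 17 sarcomere genes, 3 of 9 calcium handling genes, 1 of 5 atrial genes, 0 of 3 ventricular genes and 0 of 9 regulators. The median r was 0.777 for the energy list, 0.665 for the sarcomere list, 0.581 for the atrial list and 0.541 for calcium handling. It was 0.231 for the regulators, 0.036 for the ventricular list, -0.043 for skeletal muscle and -0.220 for smooth muscle.

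The 10 closest genes were Ckmt2 (mitochondrial creatine kinase of striated muscle, r = 0.957, rho = 0.905), Me3 (a mitochondrial malic enzyme, r = 0.948), Fbxl12 (an F-box protein, r = 0.936), Cox6a2 (r = 0.928), Pgr (the progesterone receptor, r = 0.915), Csrp3 (muscle LIM protein, r = 0.915), Ptpdc1 (r = 0.915), Abhd13 (r = 0.910), Fsd2 (r = 0.905) and Fhl2 (a LIM protein abundant in heart, r = 0.902). Ckmt2 had log2 levels of 7.62 and 7.88 in mepenzolate lungs and 8.08 and 8.02 in vehicle lungs at 7 h, and 8.22 and 7.70 in mepenzolate lungs and 7.85 and 8.27 in vehicle lungs at 25 h. Its 3 lowest arrays were those of Myh6. Fsd2 had 6.98 and 7.06 in mepenzolate lungs and 7.27 and 7.32 in vehicle lungs at 7 h, and 7.56 and 7.10 in mepenzolate lungs and 7.14 and 7.38 in vehicle lungs at 25 h. Abhd13 and Ptpdc1 varied much less, with an SD over the 8 arrays of 0.04 and 0.06. Without the 2 farthest arrays r stayed at 0.759 (Fhl2) to 0.952 (Fsd2) over these 10.

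Likeness was also read within groups, from deviations from the group means. With 2 arrays a group these deviations mirror each other, so they hold only 4 independent differences, and high values are easily reached. The 5 closest genes by this measure were Art3, Zfp1, Mylk4, Tbc1d1 and Rpl12, at 0.989 to 0.994. Over the 8 arrays themselves the same genes had r of 0.384 to 0.840 with the 10-gene mean. Mylk4, a myosin light chain kinase of striated muscle, had 6.63 and 6.99 in mepenzolate lungs and 7.05 and 7.07 in vehicle lungs at 7 h, and 6.95 and 6.47 in mepenzolate lungs and 6.38 and 6.95 in vehicle lungs at 25 h.

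**Figure D5:**
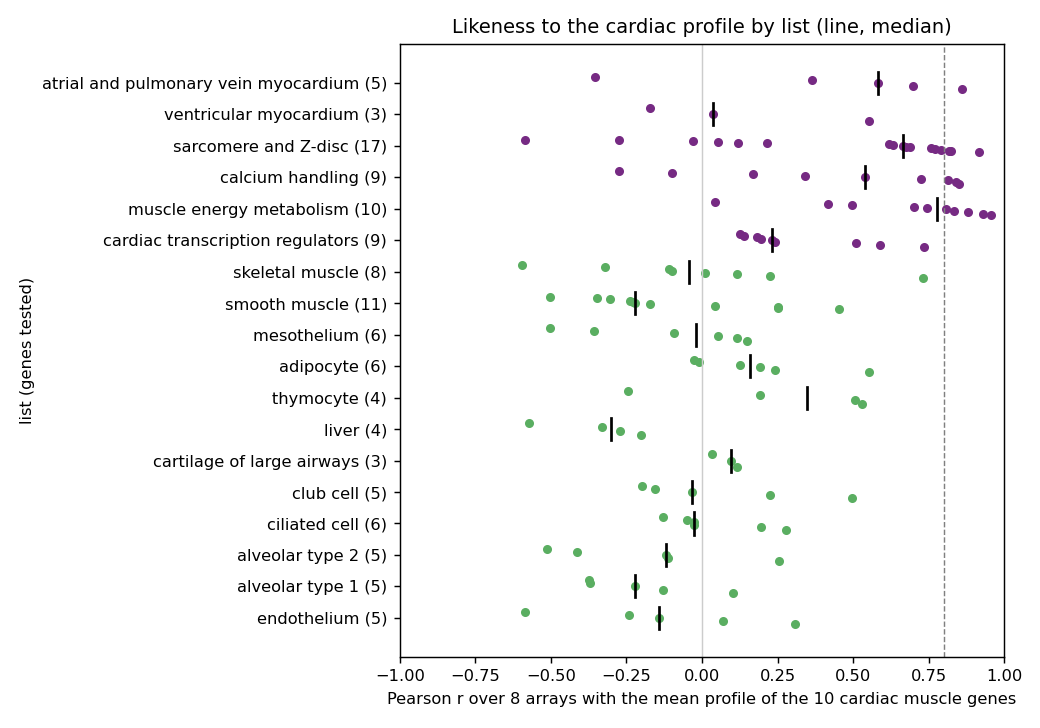
Pearson's r over 8 arrays between each listed gene and the 10-gene mean, by gene list; each point is 1 gene and bars are list medians. The energy list (median 0.777) and the sarcomere list (0.665) lie highest, and smooth muscle (-0.220) lies lowest of the muscle lists.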

How the data were processed

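Lung RNA of 8 samples was hybridised to Affymetrix mouse gene arrays. For 34760 probes the authors deposited log2 values, which the submitters' processing notes credit to RMA, the robust multi-array average. Its version is not given in the sources used here. The method corrects background, gives all arrays 1 distribution of intensities and summarises probes, which compresses differences of dim genes. Array medians ran from 6.70 to 6.77.

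Of the probes, 21640 carried 1 symbol in the platform annotation, 1321 several and 11799 were unnamed here. The brightest probe was kept for each gene, and genes with a mean below the 25th percentile were left out. A limma model (version 3.58.1, R 4.3.3) gave each of the 4 groups 1 mean, with 4 residual and 4.09 prior degrees of freedom. Benjamini-Hochberg adjustment ran over 14953 genes, and the threshold was 0.05. An exact permutation test of 2 arrays against 2 could not fall below 0.333. The fit was tested on simulated data.

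The 10 genes and the lists were chosen with earlier results of these data known, so their counts, medians and correlations are given with no test. From each list up to 3 genes with the largest moderated t at 7 h were named, and the 10 and 5 genes most like the 10-gene mean. Alternatives were a replicate block, no filter, quantile normalization, median centring, the mean of a gene's probes, an intensity trend with robust estimation, Spearman correlation and each array left out in turn. The correlation without the 2 farthest arrays was added after seeing the data.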

Additional observations from a re-analysis of the deposited data

How the results depend on the processing

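Over the 10 genes and 5 comparisons, 50 differences in all, 0 passed limma under any setting run. Direction was the same for all 50 with a replicate block, with no filter, when probes of a gene were averaged and with an intensity trend, for 49 after quantile normalization (Pln over time in vehicle lungs, 0.025) and for 48 after median centring (Myl7 at 7 h, -0.00066, and Myl4 at 25 h, 0.0030). With each array left out in turn, 365 of 400 values kept their direction and 35 turned. Over genes, replicate differences correlated at 0.194 to 0.396 among the mepenzolate groups and vehicle lungs at 7 h, and at -0.021 to 0.027 between each of these and vehicle lungs at 25 h. No label ties equal replicate numbers to a shared animal or batch, so the numbers were not used as pairs; the replicate block gave 0 genes called at 7 h, as without it.

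Genes called of all tested: at 25 h, 1 with the replicate block (0 without). Over time in mepenzolate lungs, 9 with the replicate block, 1 with no filter and 0 after quantile normalization (4 reported). Over time in vehicle lungs, 7 after quantile normalization and 33 with the trend (13 reported). Leaving out 1 array gave 0 to 2 calls at 7 h, 0 to 1 at 25 h, 0 to 2 for their difference, 0 to 2 over time in mepenzolate lungs and 0 to 14 in vehicle lungs. The cause was not tested. The mean pairwise correlation (0.560) was 0.522 by Spearman, 0.644 from deviations within groups, 0.352 without the 2 farthest arrays and 0.443 to 0.615 without 1 array.

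The median difference of the 10 genes, without 1 array, ran from -0.37 to -0.08 at 7 h, -0.19 to 0.18 at 25 h, 0.068 to 0.48 for their difference, -0.02 to 0.29 over time in mepenzolate lungs and -0.27 to 0.11 in vehicle lungs. Single genes that turned ran as follows. At 7 h, Myl7 ran from -0.11 to 0.12. At 25 h, Myh6 ran from -0.16 to 0.23, Myl7 from -0.20 to 0.086, Myl4 from -0.23 to 0.18, Tnni3 from -0.36 to 0.18, Mb from -0.39 to 0.043 and Ryr2 from -0.14 to 0.32. For the difference, Myl7 ran from -0.20 to 0.081, Myl4 from -0.032 to 0.38 and Tnni3 from -0.13 to 0.40. Over time in mepenzolate lungs, Myh6 ran from -0.10 to 0.27, Myl4 from -0.15 to 0.26, Tnnt2 from -0.57 to 0.21, Tnni3 from -0.22 to 0.32, Actc1 from -0.020 to 0.25 and Ryr2 from -0.017 to 0.37. Over time in vehicle lungs, Nppa ran from -0.33 to 0.98, Tnni3 from -0.22 to 0.049, Mb from -0.30 to 0.13, Pln from -0.24 to 0.23 and Ryr2 from -0.38 to 0.092. With an array left out, its group's other array is assumed to vary like the rest. Probes near background were not told apart from absent transcripts.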
